A study of Mus musculus with 1 sample.

Results

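The cells described here were non-dividing radial glia and astrocytes of the newborn mouse cerebral cortex, the glial cells that carried both Aldoc and Fabp7 RNA. They were found by a rule on the counts of unique molecular identifiers (UMIs, tags that let copies of 1 captured RNA molecule be counted once). A cell barcode was taken if it held at least 1000 detected genes and at least 3 UMIs each of Aldoc (aldolase C, a glycolytic enzyme) and Fabp7 (a fatty acid binding protein). It also had to hold at most 1 UMI of the mitotic genes Top2a, Mki67 and Cenpf together, at most 1 of the oligodendrocyte lineage genes Olig1 and Olig2, none of Pdgfra and at most 1 of the neuronal genes Neurod2 and Neurod6. The rule found 191 cells, or 2.12% (1.83 to 2.44) of the 9018 barcodes with at least 1000 genes, in a library of 11062 barcodes. They came from a single droplet-based sc-RNA Seq library of the cortex of wild-type (WT) C57BL/6 mice at postnatal day 0 (P0). The study set this library beside cortex of mice in which human SERPINA3 was switched on by Nestin-Cre, which was not analysed here. The series describes its sequencing as done in triplicate, but a single WT library was analysed here, and how many animals or runs it combines is not given in the sources used here. A single library allows no test, so that all values below are descriptions without replicate error. Bracketed ranges are exact 95% intervals that cover counting error only.

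Radial glia are the progenitors that line the ventricles of the embryonic brain and produce neurons, and their long fibres guide newborn neurons toward the surface. Around birth, many of them stop making neurons and turn into astrocytes, the cells that clear glutamate and potassium, supply lipids and serine, and wrap vessels and synapses. Both states share many genes, such as glutamate transporters and the intermediate filament vimentin.

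The name of the population was checked against 5 markers, of which Aldoc and Fabp7 chose the cells and are given only as a description. Aldoc reached 3, 15 and 43 UMIs in the lowest, median and highest member, and Fabp7 3, 116 and 587. The other markers were not used by the rule. Slc1a3, which encodes the glutamate transporter GLAST, had 0, 17 and 38 UMIs per member and was found in 190 of the 191. Mt3, a metallothionein of the brain, had 2, 26 and 89 UMIs and was found in all of them. Tnc, the matrix glycoprotein tenascin C, had 0, 4 and 28 UMIs and was found in 179. To compare such shares between groups of different depth, each cell was thinned at random to 2000 UMIs. Slc1a3 was then found in 96.3% of members and in 3.58% of 6371 excitatory neurons, a class that should lack it. Tnc was found in 67.7% against 0.188%. The median depth before thinning was 7548 UMIs in members and 9713 in excitatory neurons, and 2 members below 2000 UMIs were left out of thinned shares. All 3 markers outside the rule were thus found in most members and in few neurons. The neurons had been limited to at most 2 Aldoc UMIs, so this contrast was partly fixed by the choice of groups. Of 80 Olig-positive cells compared below, 6 had no UMI of Slc1a3, 10 none of Mt3 and 33 none of Tnc. None of the 5 markers was at least 4-fold higher in members than in those cells (median ratio 2.10). The markers therefore do not set members apart from Olig-positive cells.

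The limits of the rule differed in how much they cut away. Aldoc and Fabp7 together selected 364 barcodes. The mitotic genes removed 48 of these, Olig1 and Olig2 96, Pdgfra 8 and the Neurod genes 65, with overlaps between them. At the Aldoc limit, the 6 members with exactly 3 UMIs had 887 CPM of Slc1a3 (its UMIs per 1000000 UMIs of the group) and 355 CPM of Tnc, whereas the 13 barcodes just outside, with 2 UMIs, had 1124 and 257 CPM. Slc1a3 was thus not lower just outside this limit, and the rule left out barcodes with less Aldoc that carried it. Mt3 was lower just outside, at 1236 CPM against 3827 just inside, and so was the apolipoprotein gene Apoe, at 819 against 2965 CPM. Those 13 held a median of 3220 UMIs, against 7168.5 in the 6. The 12 members with 3 to 9 Fabp7 UMIs had 896 CPM of Slc1a3, and no barcode that met the other limits had fewer than 3. Members with 1 mitotic UMI (27 cells) had 2182 CPM of Slc1a3, and the 8 barcodes just outside, with 2, had 1784 CPM. Slc1a3 was lower at the Aldoc and Fabp7 edges than over all members (2202 CPM).

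Members held 1490445 UMIs in all, with 1715, 7548 and 17122 in the lowest, median and highest cell. The 8827 other barcodes with at least 1000 genes, mostly neurons, held a median of 8519. Mitochondrial genes took a median of 2.03% of the UMIs of a member and 3.30% in the others, and the highest share in a member was 6.10%. Levels below are UMIs summed over all cells of a group, as CPM of all its UMIs. A gene entered if it reached 10 CPM in either group, and it is called higher or lower if the levels differed at least 4-fold. A gene under 10 CPM in the other barcodes entered only through members, and its ratio could then only be above 1. Likewise, a gene under 10 CPM in members entered only through the other barcodes, and its ratio could only be below 1. Many of the gene lists below hold genes of either kind, so their counts and medians were partly set by this filter.

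Of 10604 genes that entered, 1160 were called higher in members (10.9%) and 1057 lower (9.97%), while the median ratio over all of them was 0.9996. Outside the rule, the genes that stood farthest above the other barcodes, besides those described by list below, included the following. Apoe, the apolipoprotein of astrocytes, reached 4236 CPM against 98.4, a ratio of 43.1 (41.7 to 44.5). It had 0, 28 and 119 UMIs per member, with 1 member at 0. Dbi, an acyl-CoA binding protein, reached 9682 CPM against 318 and was found in every member, with 5, 69 and 184 UMIs. For Cst3, a secreted inhibitor of cysteine proteases, the levels were 9454 and 385 CPM. Plpp3, a phosphatase of lipid mediators, was 33.3-fold higher and Ccdc80, a matrix-associated protein, 53.0-fold. Others were Pea15a, a phosphoprotein of astrocytes (ratio 21.1), and Tgfb2, a growth factor of the TGF-beta family (28.6). In the plot of member levels against those of the other barcodes, these genes lie far above the upper 4-fold line.

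**Figure D1:**
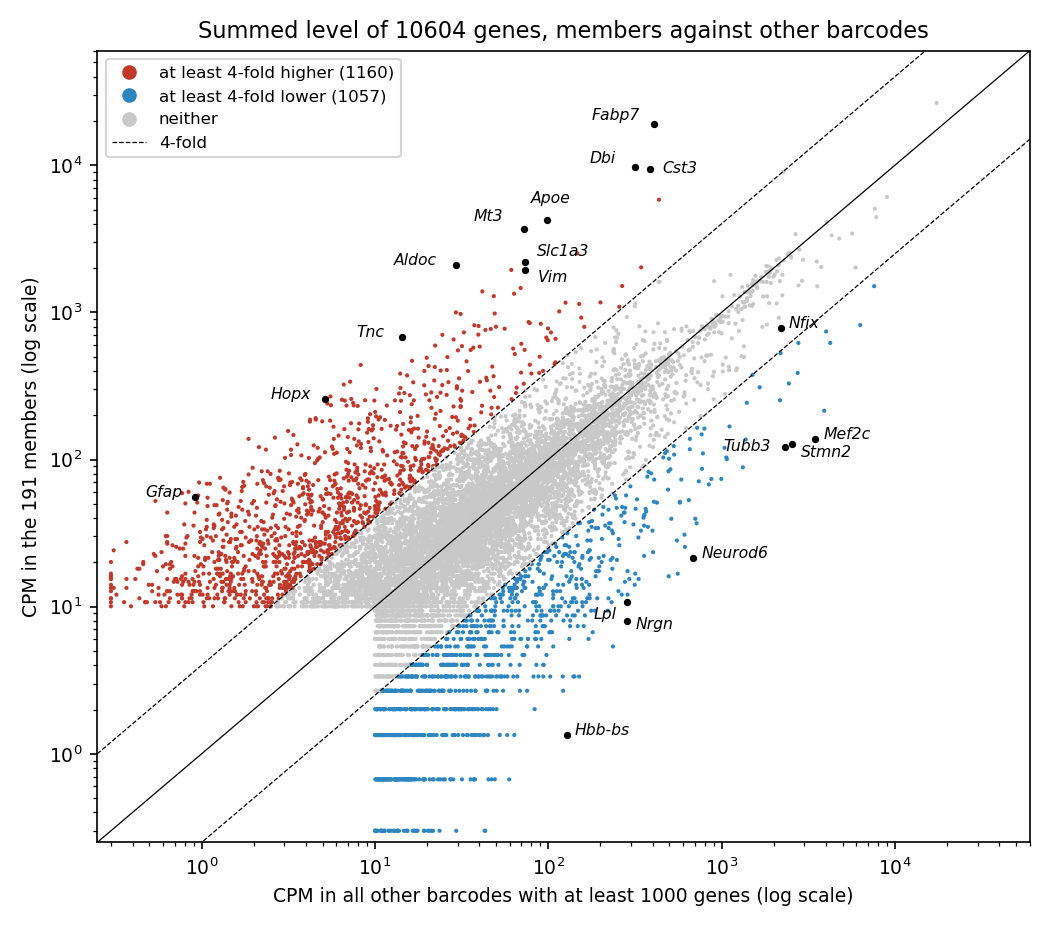
Summed levels of the 10604 genes that entered, with CPM in all other barcodes on the x axis and CPM in the 191 members on the y axis (both log scales; levels under 0.3 CPM are drawn at 0.3). Red points are the 1160 genes at least 4-fold higher in members, blue points the 1057 at least 4-fold lower, dashed lines mark 4-fold, and black points carry gene names; Apoe (4236 against 98.4 CPM) lies far above the line and Mef2c (138 against 3457 CPM) far below.

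The plot of 6 genes by cell shows how these levels were spread. For Dbi, every member lay above 0, and the medians of members, Olig-positive cells and dividing progenitors were 9504, 4990 and 963 CPM. For Mt3 the medians were 3587, 982 and 0 CPM. Members overlapped with Olig-positive cells for all 6 genes, and Hopx was at 0 in 82 members.

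**Figure D2:**
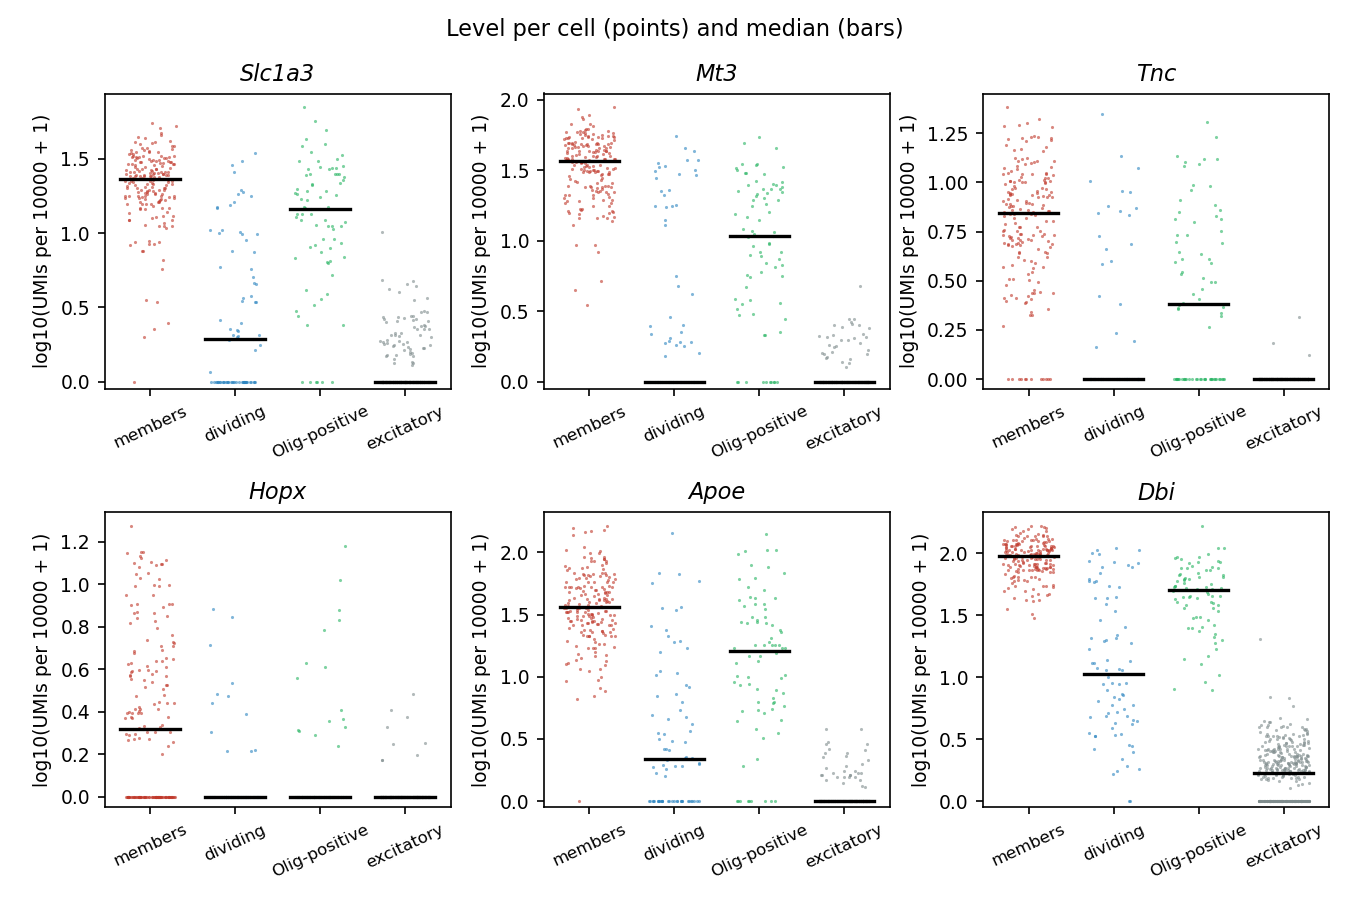
Each point is 1 cell and each bar a median, on the y axis as log10 of UMIs per 10000 plus 1, for 191 members, 82 dividing progenitors, 80 Olig-positive cells and 400 excitatory neurons (every 16th of the group, to keep points apart). Dbi and Mt3 are above 0 in every member, while 368 of the 400 neurons have no Mt3 UMI and 82 members have no Hopx UMI.

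Genes of radial glia were higher as a group. All 24 genes of this list entered, 21 were called higher and none lower, and the median ratio was 17.0. Vim, the filament protein of radial fibres, reached 1944 CPM against 73.3, with 0, 12 and 67 UMIs per member. Nes, the filament protein nestin, reached 284 CPM against 23.9, a ratio of 11.9 (10.7 to 13.2), and was found in 152 members. Among transcription factors of neural stem cells, Sox2 was 15.6-fold higher and found in 187 members, and Sox9, which also drives glial fate, was 22.4-fold higher and found in 185. Pax6, the factor of cortical radial glia, reached 406 CPM against 26.0, with 0, 3 and 13 UMIs, and was found in 164 members. Pdpn, a membrane mucin, was 48.4-fold higher, and Mfge8, a secreted protein that bridges cells for engulfment, 26.6-fold. Ddah1, an enzyme that breaks down methylarginines, had 9 UMIs in the median member and was 21.1-fold higher. Among the 3 genes that were not called were Lhx2, a cortical selector gene (412 against 242 CPM), and Wnt7b, a Wnt ligand (25.5 against 99.7 CPM).

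A list of outer radial glia genes, known from the basal progenitors that are common in gyrified brains, gave 11 of 13 entered genes higher, none lower, and a median ratio of 13.4. Several of the 11, among them Hopx, Fam107a and Il6st, entered only through their level in members, so that the filter had set their direction. Hopx, a homeodomain protein used as their marker, reached 258 CPM against 5.13, a ratio of 50.2 (43.7 to 57.7). It had 0, 1 and 18 UMIs per member and was found in 109. After thinning, its share was 31.2% in members and 0.439% in excitatory neurons. Fam107a, an actin-binding protein, was 68.8-fold higher (47.3 to 100) but rested on 65 UMIs in 42 members. Ptprz1, a receptor phosphatase, reached 5829 CPM against 436 and was found in every member. Ptn, a secreted ligand of that receptor, had 9078 CPM against 2291, just under the 4-fold limit at 3.96. The receptor subunit Il6st was 6.90-fold higher, and Lifr, which pairs with it, had 30.2 against 21.2 CPM. Moxd1 had 3 UMIs and Pth2r none, so that neither entered. Against the Olig-positive cells compared below, 1 of 13 genes of this list was higher and none lower (median ratio 1.31).

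A list of genes that mark maturing astrocytes was examined in the same way. All 27 genes that entered, of 32, were called higher, with a median ratio of 22.7. Some of them, such as Aldh1l1 and Gja1, entered only through their level in members, so that the filter had set their direction. Aldh1l1, a folate enzyme used as a pan-astrocyte marker, reached 323 CPM against 6.61 and was found in 152 members. Gfap, the filament protein of mature and reactive astrocytes, was 60.4-fold higher (43.9 to 83.2), yet it rested on 83 UMIs in 50 members, with 10 UMIs in the highest. Aqp4, the water channel of astrocyte endfeet, had 131 UMIs in 75 members. The potassium channel Kcnj10 was 20.7-fold higher, the bicarbonate transporter Slc4a4 19.1-fold, and Mlc1 and Hepacam, which act together at astrocyte junctions, 42.0-fold and 29.1-fold. Gja1, the gap junction protein connexin 43, had only 61 UMIs (40.9 against 3.51 CPM). Some genes of the list were at or near 0. S100b, a calcium-binding protein, Agt, angiotensinogen, and Gjb6, connexin 30, had no UMI among the 1490445 of the members, and Ntsr2, a neurotensin receptor, had 1.

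**Figure D3:**
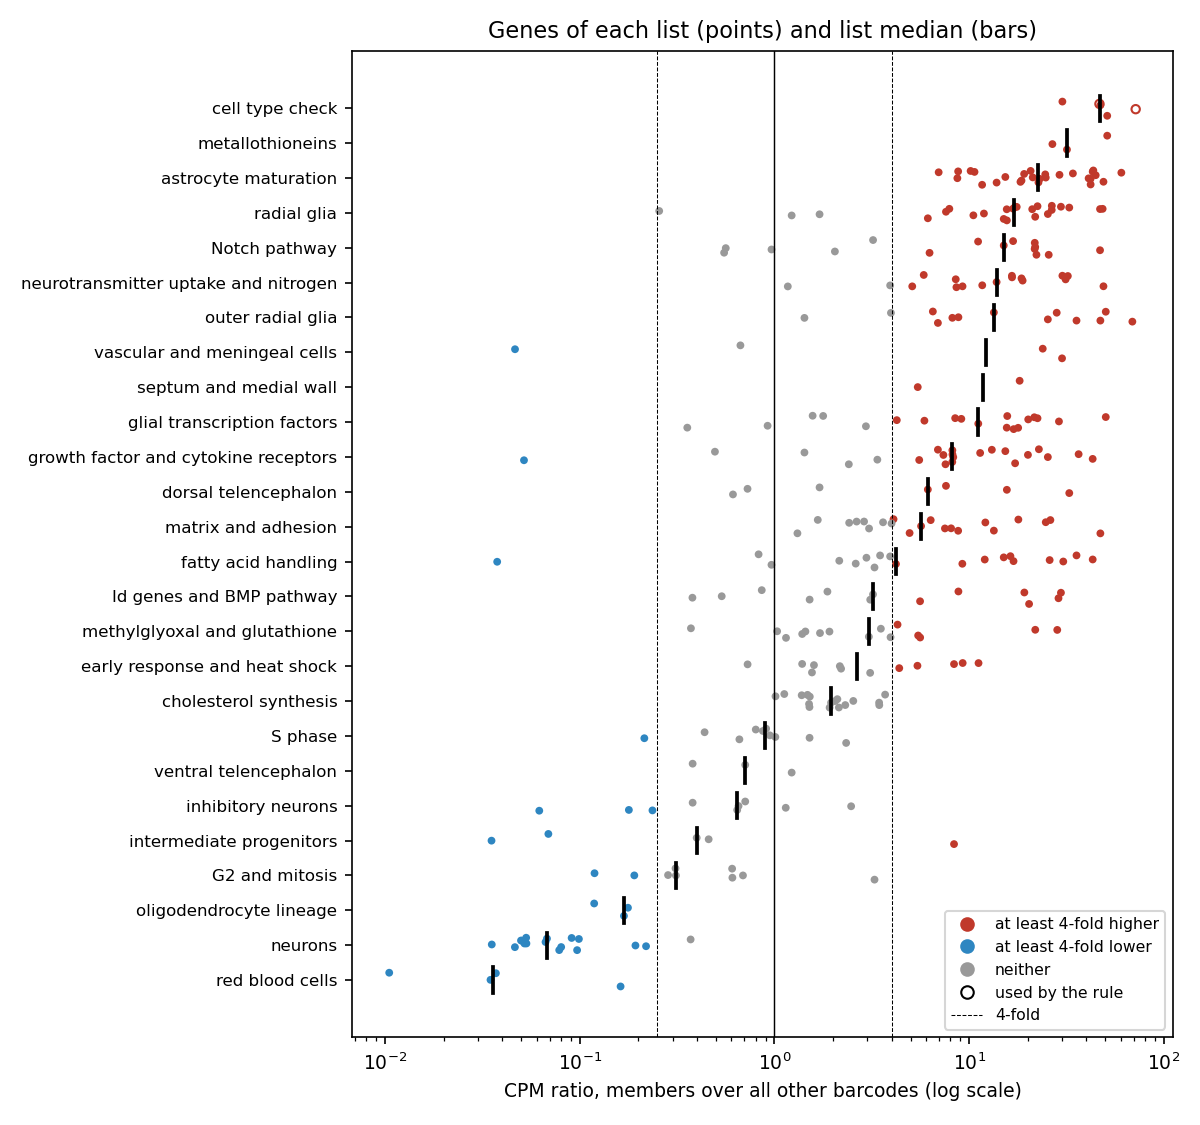
CPM ratio of members over all other barcodes on the x axis (log scale) for each gene that entered, in rows by gene list, with the list median as a black bar; red is at least 4-fold higher, blue at least 4-fold lower, grey neither, and open circles are genes of the rule. All 27 astrocyte maturation genes lie right of the upper 4-fold line and 16 of 17 neuron genes left of the lower one, while all 17 cholesterol genes lie between 1 and 4.

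Transport of neurotransmitters and the synthesis of serine and glycine were covered by 1 list, in which 15 of 17 entered genes were called higher and none lower (median ratio 13.8). Besides Slc1a3, which reached 2202 CPM against 73.2, the second astrocyte glutamate transporter Slc1a2 reached 590 CPM against 31.8 and was found in 175 members. Glul, which turns glutamate into glutamine, had 775 CPM against 56.1. The GABA transporter Slc6a11 was 8.53-fold higher. The serine pathway was high at each of its steps. Phgdh, its first enzyme, had 0, 7 and 21 UMIs per member and 976 CPM against 31.2. Psat1, the second enzyme, was 11.7-fold higher, and Psph, the last, 16.6-fold. Gldc, a subunit of the enzyme that cleaves glycine, was 32.1-fold higher. Shmt2, the mitochondrial enzyme that links serine and glycine, had 10.7 against 9.17 CPM, and its cytosolic partner Shmt1 had 4 UMIs.

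Metallothioneins are small proteins that bind zinc and copper, and 3 of the 4 genes of the list entered, all called higher. Mt3 reached 3694 CPM against 72.3, a ratio of 51.1 (49.3 to 53.0). Mt1 reached 1944 CPM against 61.2, with 1, 13 and 78 UMIs per member. Mt2 reached 595 CPM against 22.3, with 0, 3 and 56 UMIs, and was found in 173 members. Mt4 had no UMI in members. Mt1 and Mt2 are known to respond to metals through the factor Mtf1, which binds the metal response element, whereas Mt3 is known for brain expression that metals induce little. The 250 bases before the RefSeq start of each gene (GRCm38.p6) were therefore set side by side. They lie on the plus strand at chr8:94178839-94179088 for Mt1, chr8:94172368-94172617 for Mt2 and chr8:94152357-94152606 for Mt3. Capitals mark matches to the core TGCACNC or TGCGCNC on either strand, where N is any base.
Mt1: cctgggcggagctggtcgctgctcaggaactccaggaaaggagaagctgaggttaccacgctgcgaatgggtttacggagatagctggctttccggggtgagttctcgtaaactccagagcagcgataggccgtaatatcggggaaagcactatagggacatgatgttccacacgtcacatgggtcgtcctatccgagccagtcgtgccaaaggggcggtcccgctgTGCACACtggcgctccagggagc
Mt2: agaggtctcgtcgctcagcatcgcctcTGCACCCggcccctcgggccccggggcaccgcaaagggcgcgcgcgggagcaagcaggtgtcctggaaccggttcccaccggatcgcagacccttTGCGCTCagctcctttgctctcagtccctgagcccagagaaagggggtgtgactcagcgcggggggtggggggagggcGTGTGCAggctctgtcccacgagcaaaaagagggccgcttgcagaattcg
Mt3: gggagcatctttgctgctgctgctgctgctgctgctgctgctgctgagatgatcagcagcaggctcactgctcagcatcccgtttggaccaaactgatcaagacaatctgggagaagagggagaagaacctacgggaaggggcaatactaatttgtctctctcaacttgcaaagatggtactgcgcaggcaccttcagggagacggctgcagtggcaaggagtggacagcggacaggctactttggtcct
Within these windows, the core occurred once before Mt1, with its first base at -23 from the RefSeq start, and 3 times before Mt2, at -223, -128 and -50. Letters outside the windows, including those after the RefSeq start, were not searched, so these are not counts of all elements of a gene. It was not found in these letters before Mt3. Of 32851 windows of the same length, 21.4% held at least 1 match and 5.17% at least 2. A match is a description of the letters and not a bound site.

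Lipid genes fell into several patterns. Of 19 genes of fatty acid handling that entered, 10 were called higher and 1 lower, with a median ratio of 4.20. Most genes of mitochondrial fatty acid oxidation in the list were higher, with ratios of 25.9 for Cpt1a, which brings fatty acids into mitochondria, 16.9 for Acadl, 12 for Acadm and 16.3 for Acaa2. Hadhb, a subunit of the trifunctional enzyme of this pathway, was not called (2.97), and its partner Hadha, at 4.20, fell to 3.66 under another setting. Acsbg1, an acyl-CoA synthetase of glia, was 35.6-fold higher, and Abca1, which exports cholesterol to apolipoproteins, 15-fold. Fabp5, a relative of Fabp7, was not called (1371 against 1421 CPM), nor was Fasn, the fatty acid synthase (121 against 146 CPM). Lpl, which releases fatty acids from lipoproteins, had 10.7 against 285 CPM, a ratio of 0.0377 (0.0215 to 0.0612). In cholesterol synthesis, none of the 17 genes was called, yet all 17 had a ratio above 1, with a median of 1.95. The highest was Msmo1, a sterol demethylase (571 against 154 CPM), and the lowest Fdft1, squalene synthase (154 against 152 CPM).

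The Notch pathway keeps radial glia undifferentiated: ligands on neighbouring cells activate Notch receptors, which act with Rbpj to switch on Hes and Hey repressors. Of 15 genes that entered, 10 were called higher and none lower, with a median ratio of 15. All 3 receptors were among them. Several of the 10, such as Notch2, Notch3, Hey2 and Lfng, entered only through their level in members, so that the filter had set their direction. Notch1 reached 403 CPM against 24.0 and was found in 177 members, Notch2 reached 338 CPM against 7.20, and Notch3 had 73.1 against 2.86 CPM. Among targets, Hes5 reached 817 CPM against 37.5, with 0, 4 and 42 UMIs per member, and Hes1 was 15-fold higher. Hey1 and Hey2 were 11.1-fold and 22.1-fold higher, and so was the feedback gene Nrarp, at 21.7-fold. Lfng, which adds sugars to Notch, was also 21.7-fold higher. Of the ligands, Jag1 was 6.25-fold higher on 29 UMIs, while Dll1 had 4 UMIs and Dll3 had 2. Rbpj itself had 77.8 against 38.1 CPM, and Hes6, a neuronal relative that opposes Hes1, 59.7 against 106 CPM. For Hes5, the target found in most members, the 250 bases before the RefSeq start are shown (GRCm38.p6, chr4:154960673-154960922, plus strand). Capitals mark matches to GTGGGAA, the letters Rbpj is known to bind, on either strand.
Hes5: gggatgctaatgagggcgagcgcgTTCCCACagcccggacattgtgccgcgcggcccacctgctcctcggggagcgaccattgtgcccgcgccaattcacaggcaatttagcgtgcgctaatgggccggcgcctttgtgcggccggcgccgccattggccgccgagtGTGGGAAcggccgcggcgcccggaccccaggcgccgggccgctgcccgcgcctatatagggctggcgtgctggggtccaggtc
The motif occurred at 2 places, with first bases at -226 and -83. It occurred once each in the windows of Hey2 and Lfng and was not found in those of Nrarp, Notch1, Notch2 and Notch3. Genes outside the pathway, such as Mt2, also held it once. In the 32851 windows, 5.42% held it and 0.161% held it at least 2 times.

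The Id proteins block proneural factors and respond to BMP signals. Id1 reached 425 CPM against 22.2, Id3 704 against 24.5 and Id4 302 against 10.2. Id2 went the other way, at 286 against 535 CPM. Over the list of Id genes and BMP pathway members, 6 of 13 entered genes were called higher and none lower (median ratio 3.21). They included the receptor Bmpr1a (ratio 5.59), the inhibitor Smad6 (20.3) and the ligand Bmp7 (8.80, on 34 UMIs), while Bmpr2, Smad1 and Smad5 were not called.

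Receptors for growth factors and cytokines gave 17 of 22 entered genes higher and 1 lower, with a median ratio of 8.20. The FGF receptors Fgfr1, Fgfr2 and Fgfr3 were 8.28-fold, 11.4-fold and 15.3-fold higher. Fgfbp3, which binds and releases FGFs, reached 983 CPM against 49.1. The hedgehog receptor Ptch1 and its partner Smo were 7.37-fold and 7.55-fold higher, and the hedgehog target Gli1 had 51.7 against 1.42 CPM. Ednrb, an endothelin receptor, was 17.2-fold higher. Egfr, the EGF receptor, had 47.0 against 13.9 CPM and was not called. Erbb4, a neuregulin receptor of interneurons, had 1 UMI in members and 13.0 CPM in the other barcodes.

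Among glial transcription factors, 14 of 19 that entered were called higher and none lower (median ratio 11.1). None of 20 genes of this list was higher against the Olig-positive cells compared below, and 1 was lower (median ratio 1.15). Nfia, which promotes astrocyte genes, reached 1092 CPM against 257, with 1, 8 and 22 UMIs per member. Its relatives did not share this pattern, since Nfib had 1370 against 1486 CPM and Nfix 782 against 2192 CPM. Zbtb20, which promotes the making of astrocytes, was 5.89-fold higher and found in every member. Rfx4, a factor of radial glia, was 21.6-fold higher, Tcf7l1 and Tcf7l2, which carry Wnt signals, 28.9-fold and 20.1-fold, and Sox21 17.8-fold. Sox10, the factor of oligodendrocytes, had no UMI.

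Genes that mark forebrain regions were examined next. Of 7 dorsal telencephalon genes, 4 were called higher, namely Pax6, Emx2, Dmrta2 and Tfap2c, with a list median of 6.13. Tfap2c, a factor of dorsal progenitors, had 68.4 against 2.10 CPM. Emx1, which cortical neurons keep, had 41.6 against 68.0 CPM. At least 1 UMI of Emx1, Emx2, Tfap2c or Dmrta2 was found in 160 members (83.8%). Of 3 ventral telencephalon genes that entered, none was called in either direction (median ratio 0.707), and Nkx2-1, Gsx1 and Gsx2 had no UMI. A UMI of Dlx1, Dlx2, Dlx5 or Dlx6 was found in 8 members, and the member with most of them held 14 of the 38. Without the member richest in each gene, the ratio of Dlx1 went from 0.380 to 0.219, past the 4-fold limit. That of Dlx2 went from 0.707 to 0.439. In the list of septum and medial wall genes, 2 of 8 entered, Zic2 and Zic5, and were called higher (18.1 against 3.33 and 48.3 against 2.66 CPM). Both entered only through their level in members, so that the filter had set their direction. Of the 8 genes, 5 had no UMI in members, and Zic1 had 4 (ratio 0.584). A Zic UMI was found in 74 members.

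Of the genes of matrix and adhesion, 13 of 21 were called higher and none lower (median ratio 5.66). They included the brain proteoglycans Bcan (492 against 19.9 CPM), Ncan (798 against 161) and Cspg5 (1511 against 267), and the collagen-binding protein Sparc (706 against 39.5). Megf10 and Mertk, receptors with which astrocytes engulf synapses, were 26.1-fold and 12.1-fold higher, the latter on 16 UMIs. The list of methylglyoxal and glutathione enzymes included Glo1, a glyoxalase that the study followed up. Glo1 reached 266 CPM against 48.7, a ratio of 5.47 (4.92 to 6.06), with 0, 2 and 9 UMIs per member, and was found in 164. Its partner Hagh, the second glyoxalase, had 38.2 against 33.4 CPM. Over the list, 5 of 15 genes were called higher and none lower (median ratio 3.05), the others being Gstm1, Gstm5, Mgst1 and Prdx6, which use glutathione or remove peroxides. Against the Olig-positive cells compared below, none of 15 list genes was called (median ratio 1.08). Sod1, a superoxide dismutase, had 65.1 against 175 CPM.

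The genes farthest below the other barcodes included many of neurons. Mef2c, a transcription factor of cortical neurons, had 138 CPM in members and 3457 in the other barcodes, a ratio of 0.0400 (0.0347 to 0.0458). Dync1i1, a dynein subunit, had 5.37 against 236 CPM, and Nrgn, a postsynaptic calmodulin-binding protein, 8.05 against 285 CPM. Pou3f1, a factor of upper-layer neurons, had 16.1 against 496 CPM, Syt4, a synaptotagmin, 25.5 against 615 CPM and Basp1, a growth cone protein, 215 against 3910 CPM. Stmn2, which regulates neuronal microtubules, had 0, 1 and 18 UMIs per member and 127 against 2554 CPM. Tubb3, neuronal tubulin, had 121 against 2335 CPM. Without the 25% of members richest in neuronal UMIs, the ratio of Stmn2 went from 0.0499 to 0.0258 and that of Tubb3 from 0.0520 to 0.0274, and with the mean over cells that of Nrgn from 0.0282 to 0.0467. In the neuron list, 16 of 17 genes were called lower, and the remaining gene, Map2, had 211 against 570 CPM. Neurod2 and Neurod6 were also lower, but the rule had set their counts. That limit removed barcodes with neuronal RNA, and the other barcodes were mostly neurons. Low levels of the other neuron genes were thus largely fixed by the selection. Summed over Tubb3, Dcx, Stmn2 and Gap43, a member held a median of 2 UMIs and an excitatory neuron 61. Of the members, 18 held none of these and 8 held 10 or more.

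Markers of other cell types were checked in the same way. Microglia genes came to 5 UMIs over 9 genes (3.35 CPM), red blood cell genes to 5 UMIs and choroid plexus genes to 7 UMIs, so that none of the microglia or choroid plexus genes entered and all 4 entered red blood cell genes were called lower. The latter calls rested on the limit of the rule, since with a minimum of 2 Aldoc and Fabp7 UMIs these genes were higher in members. Of the oligodendrocyte list, the 3 entered genes were called lower, and 8 of 13 had no UMI, in cells that the rule had limited in Olig1, Olig2 and Pdgfra. Opcml, an adhesion protein that neurons also carry, gave 124 of the 149 UMIs of this list and had 83.2 CPM in members, 55.9 in Olig-positive cells and 541 in excitatory neurons. The endothelial genes Cldn5, Flt1 and Kdr had no UMI, whereas Pdgfrb, a receptor of pericytes, was found in 122 members and had 138 against 5.8 CPM. Col1a2, a collagen chain, had 35.6 against 1.19 CPM, and the pericyte genes Kcnj8 and Rgs5 had 0 and 17 UMIs. The vascular list thus gave 2 of 4 entered genes higher and 1 lower. Inhibitory neuron genes gave 3 of 9 lower and none higher, beside 9.97% lower over all genes. Of these 3, Lhx6, at 0.236, rose to 0.284 and so left the 4-fold limit under another setting. Adarb2, at 0.179, ranged from 0.0795 to 0.229. Lhx6 and Adarb2 had 4 and 5 UMIs in members and entered only through the other barcodes, so that the filter had set their direction. In the ependymal list, only Foxj1, the factor of motile cilia, entered and was called higher, at 33.5 against 2.02 CPM. However, 1 member held 31 of its 50 UMIs, together with 4 of Rsph1, 6 of Cfap126 and 5 of Dynlrb2, which are further cilia genes. Without the cell richest in Foxj1, the ratio was 6.37. Another member held 39 of the 44 Sst UMIs, along with 127 of Meg3 and 18 of Stmn2. Whether such members were doublets was not tested.

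Of the intermediate progenitor list, 2 of 5 entered genes were called lower, Sstr2 and Neurod1, and 1 higher, Btg2, an antiproliferative gene that also belongs to the early response list. Eomes, the defining factor of intermediate progenitors, had 12 UMIs in 5 members, of which 1 member held 6. Cell cycle genes beyond those of the rule were mostly not called, in cells that the rule had limited in Top2a, Mki67 and Cenpf. Low levels of other genes of division were thus largely set by the rule. Over all genes that entered, 9.97% were called lower. Among 10 S phase genes that entered, 1 was called lower, Rrm2, and none higher (median ratio 0.889), and among 9 genes of G2 and mitosis 2 were called lower, Birc5 and Cenpe, and none higher (median ratio 0.312). Mcm3, a part of the replicative helicase, had a ratio of 2.33 on 25 UMIs, and Hmgb2, a chromatin protein, 3.26. The calls of Rrm2 and Birc5, at ratios of 0.215 and 0.191, left the 4-fold limit under some of the other settings tried. Sstr2, Neurod1, Rrm2, Birc5 and Cenpe were under 10 CPM in members, so that the filter had set their direction. Ccnb1 and Ccnb2, the mitotic cyclins, had no UMI in members. In the early response and heat shock list, 5 of 12 genes were called higher and none lower (median ratio 2.65). Fos reached 860 CPM against 77.1, Jun 1165 against 126 and Egr1 388 against 88.7, all of them genes that many stimuli induce within minutes. Fosb and Btg2 were the others. None of 13 genes of this list was higher against the Olig-positive cells or the dividing progenitors compared below. In each of these comparisons 1 was lower (median ratios 0.847 and 0.986).

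Members were next compared with dividing progenitors, defined by at least 3 mitotic UMIs with the same limits for oligodendrocyte and neuronal genes (82 cells). Of 10600 genes that entered this comparison, 322 were higher in members (3.04%) and 818 lower (7.72%). This set was mixed, since it also held cells with genes of vessels, microglia, red blood cells and Cajal-Retzius neurons, such as Cldn5 at 363 CPM and Reln at 1016 CPM. Values are therefore given beside those of the 18 dividing cells that also had at least 3 UMIs of Aldoc and of Fabp7. Against these, 151 of 10009 genes were higher in members (1.51%) and 419 lower (4.19%). Members had 432 CPM of Clu, a secreted chaperone, which was 8.90-fold the level of all dividing progenitors and 2.11-fold (1.55 to 2.94) that of the 18. Slc6a11 was 9.44-fold higher against all and 2.65-fold (1.58 to 4.79) against the 18, and Hopx 8.14-fold and 2.0-fold (1.35 to 3.08). Fgfbp3 gave 7.06-fold and 1.76-fold, Cspg5 5.97-fold and 1.59-fold, and Abhd4, a lipase, 7.11-fold and 2.43-fold. Veph1 (8.72-fold and 2.19-fold), Luzp2 (6.04-fold and 1.95-fold) and C030005K06Rik (10.3-fold and 2.27-fold) went the same way. Gfap was 5.84-fold higher than in the 18, with a wide interval (1.57 to 49.1). For 4 radial glia genes the interval of the ratio to the 18 included 1, with ratios of 1.0 (0.798 to 1.27) for Pax6, 0.995 (0.758 to 1.33) for Nes, 1.04 (0.938 to 1.16) for Vim and 0.960 (0.795 to 1.17) for Sox2. Ednrb, at 0.631 (0.502 to 0.801), Psat1, at 0.608 (0.483 to 0.771), and Gja1, at 0.429 (0.256 to 0.752), were lower in members. Genes of division were lower in members, which the split on mitotic UMIs had fixed. Hist1h2ap, a histone gene, had a ratio of 0.0262 against all dividing progenitors and 0.0245 against the 18, Pclaf, a partner of the replication clamp, 0.00688 and 0.0104, and Cdca8, a part of the mitotic passenger complex, 0.00785 and 0.00481. Calb2, Hbb-bs, Reln and Cldn5 were also among the lowest, and so were the mitotic genes of the rule.

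Olig-positive cells without Pdgfra (80 cells with at least 3 UMIs of Olig1 and Olig2 and the mitotic and neuronal limits of the rule) were compared in the same way. Of 9979 genes, 174 were higher in members (1.74%) and 160 lower (1.6%). Clu was 13.5-fold higher (8.69 to 22.3), found after thinning in 50.3% of members and 2.5% of Olig-positive cells. Entpd2, an enzyme that degrades ATP outside cells, was 14.6-fold higher, and Cntnap2, an adhesion protein, 16.6-fold. Lipg, a lipase, and Ogn, a small proteoglycan, had no UMI in Olig-positive cells and were at least 14.3-fold and 10.9-fold higher, with that group set at 3 counts. Adamts18, a secreted protease, was 12.9-fold higher, Slc14a2, a urea transporter, 21.4-fold, Riiad1 22.7-fold, Fstl5 7.66-fold and Plagl1, a zinc finger factor, 6.15-fold. Pax6 was 4.46-fold higher (3.40 to 5.96), Notch2 4.41-fold and Id4 4.40-fold. The Notch pathway had 1 of 18 genes higher and 3 lower (median ratio 0.967), and the Id and BMP list 1 of 13 higher and none lower (1.09). Radial glia genes had 5 of 24 higher and 1 lower (1.73), and dorsal telencephalon genes 2 of 7 higher and none lower (1.87). The outer radial glia list had 1 of 13 higher and none lower (1.31). No gene was called in the lists of neurotransmitter uptake (1.33), metallothioneins (1.56), fatty acid handling (1.34) or methylglyoxal and glutathione (1.08). Receptors for growth factors and cytokines had none of 22 higher and 1 lower (0.993). Glial transcription factors had none of 20 higher and 1 lower (1.15), and matrix and adhesion genes 1 of 22 higher and 1 lower (1.45). None of 17 cholesterol synthesis genes was called (0.924), and early response genes had none of 13 higher and 1 lower (0.847). Most genes of these lists were thus not called against Olig-positive cells. Besides Olig1 and Olig2, which defined the groups, the genes lower in members included Egfr, at 0.123 (0.0926 to 0.161). The Notch ligand Dll3 was at 0.0263 (0.00305 to 0.103), the ribonucleotide reductase subunit Rrm2 at 0.0788, and Serpine2, a protease inhibitor, at 0.182 (0.128 to 0.257). Lrrfip1, Nptx2, a synaptic pentraxin, and Smoc1, a matrix protein, had ratios of 0.0657, 0.0652 and 0.0914. Of 29 astrocyte maturation genes that entered, 1 was higher and 1 lower, with a median ratio of 1.15, and examples were Aqp4 (87.9 against 83.0 CPM), Hepacam (231 against 209) and Bcan (492 against 460). Hes5 was at 817 CPM in members against 1138, and Egr1 at 388 against 1219 CPM, neither of which reached the 4-fold limit. The plot of shares after thinning sets 17 genes side by side in the 4 groups.

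**Figure D4:**
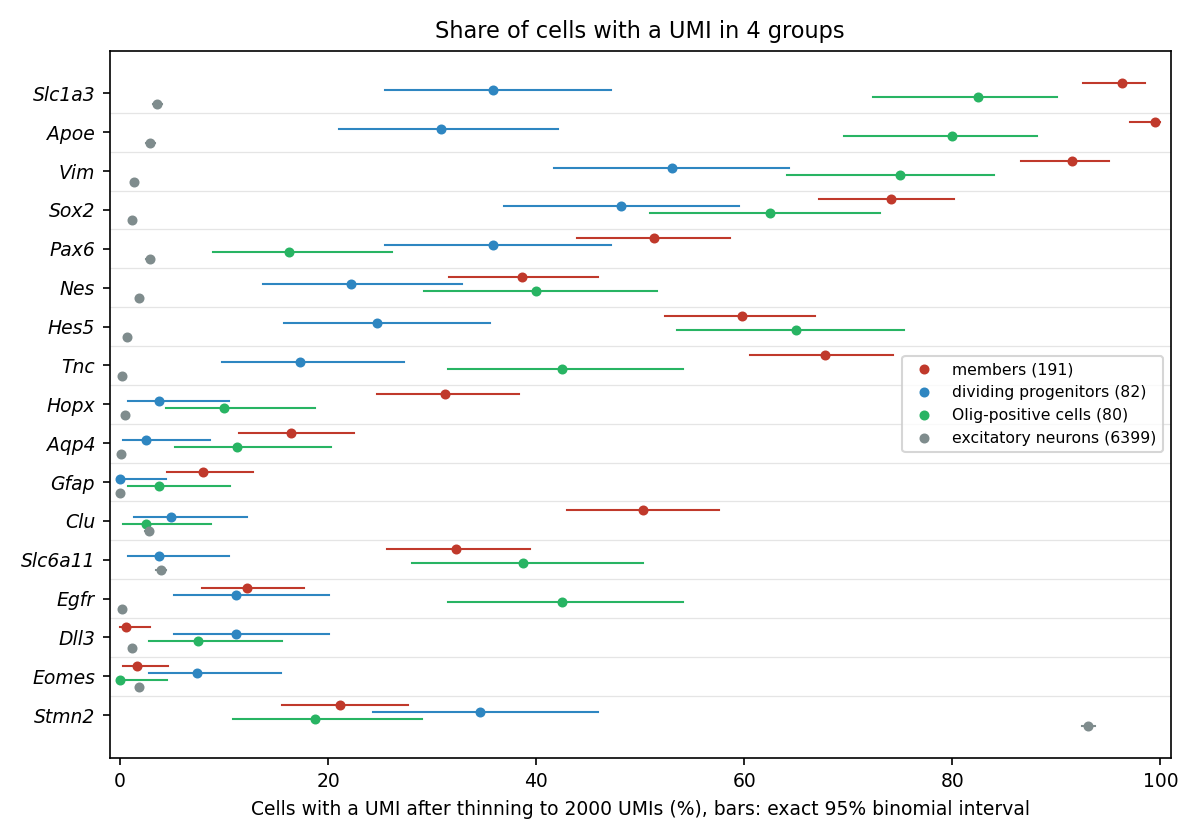
Share of cells with at least 1 UMI after thinning to 2000 UMIs on the x axis (%), with exact 95% binomial intervals as bars, for 17 genes in members (red), dividing progenitors (blue), Olig-positive cells (green) and excitatory neurons (grey); the legend gives all cells of each group before thinning. Clu is found in 50.3% of members and 4.94% or less in each other group, whereas Egfr is found in 12.2% of members and 42.5% of Olig-positive cells.

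The spread of counts among members was examined next. The variance of UMIs over members was divided by the variance that depth and counting alone would give, for 3087 genes with a mean of at least 0.5 UMI. The median of this index was 1.10, 90% of genes were below 1.6, and 170 genes reached 2. Fabp7 had the index 47.4, although the rule had fixed its lower end. It was followed by Malat1, a nuclear RNA (33.8), Meg3, an imprinted RNA (26.6), and Gm42418, a locus that overlaps ribosomal RNA (22.9). For Meg3, 127 of 377 UMIs came from a single member. Fos (19.3) and Egr1 (9.82) are early response genes, and Fos was found in 132 members with 0, 2 and 96 UMIs. Id3 (14.7) was found in 132 members with 0, 2 and 49 UMIs. Cst3 (14.7), Apoe (13.7), Ptn (13.1), Ptprz1 (9.44) and Mt1 (7.35) are glial genes found in nearly all members. Fgfbp3 (10.5) ranged from 0 to 82 UMIs with a median of 3. Selenom, a selenoprotein (8.82), and the mitochondrial ribosomal RNA mt-Rnr2 (9.80) completed the 15 most variable genes. Sox2 (1.25), Notch1 (1.16), Lhx2 (1.03), Glo1 (0.880) and Nes (1.38) had lower indices. The index grows with the mean count, so its excess over 1 was also divided by the mean UMIs per member. On that scale Malat1 (0.159), Ptn (0.170), Cst3 (0.185) and Ptprz1 (0.185) were level with Nes (0.171). Fabp7, first by the index itself, had 0.313, and Apoe and Mt1 had 0.384 and 0.418. Meg3 (12.9), Selenom (5.10), Egr1 (2.91), Fos (2.72), Id3 (2.49) and Fgfbp3 (1.24) were higher, and Sox2 (0.0548) and Notch1 (0.0523) were lower.

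Detection of several genes in the same cells was counted. Pax6 was found in 164 members and Hopx in 109, and 100 members had both. Gfap was found in 50 members, 40 of which also had Hopx. Aqp4 was found in 75, 48 of which had Hopx, and 19 members had both Gfap and Aqp4. These counts depend on depth and on how common each gene was, and no link between genes is read from them.

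To describe how members varied in astrocyte genes, they were ordered by the percentage of their UMIs that came from the astrocyte maturation list. The 63 lowest and the 63 highest members were then compared for genes outside that list. The list took a median of 1.44% of UMIs in the lowest members and 3.05% in the highest, with median depths of 7595 and 6872 UMIs. Cst3 and Apoe gave 63.3% of the UMIs of the list, so the order followed these 2 genes most. Of 26 list genes with at least 50 CPM, 12 were at least 2-fold higher in the highest members, and Kcnj10 was not higher, at 0.957. The order was therefore repeated without Cst3 and Apoe, which kept 47 of the 63 highest and 46 of the 63 lowest members. These are ranges of a score and not cell types, since 39 and 40 members lay within 10% of the 2 limits. Of 4288 genes with at least 50 CPM in either range, 108 were at least 2-fold higher in the highest members (2.52%) and 104 at least 2-fold lower (2.43%). All 16 cholesterol synthesis genes with that level had a ratio above 1, with a median of 1.74, while the median over all 4288 genes was 0.955. Msmo1 had a ratio of 2.32 (1.94 to 2.80). Early response genes did the same, with 10 of 10 above 1 and a median of 1.96. Fos was at 1451 and 625 CPM, Btg2 at 532 and 225 CPM and Nr4a1, a nuclear receptor, at 79.2 and 18 CPM. Id1 was 2.49-fold and Id3 2.28-fold higher. Vegfa, the vessel growth factor, was 2.91-fold higher (1.86 to 4.67), and Cpe, a peptide-processing enzyme, 2.38-fold. Cnp, an enzyme best known from myelin, was 5.51-fold higher, on 45 and 9 UMIs. In the order without Cst3 and Apoe, the median was 1.74 for the cholesterol genes, with 15 of 16 above 1, and 2.33 for the early response genes, with 10 of 10 above 1. Cnp was then 2.5-fold higher, Msmo1 1.9-fold, Fos 3.27-fold and Id3 4.47-fold.

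Other genes were lower in the highest members. Insm1, a factor of neurogenic progenitors, had 1 UMI in the highest members and 30 in the lowest. Parp1, which acts in DNA repair, had a ratio of 0.228 (0.347 without Cst3 and Apoe in the order) and the tubulin gene Tubb5 0.510 (0.428 to 0.606). Neuronal RNA moved with this order, as 7 of 7 neuron list genes with at least 50 CPM had a ratio below 1 (0.443 to 0.793), and its part in the difference was not tested. Genes of radial glia differed less, with a ratio of 0.758 (0.690 to 0.833) for Vim, 0.814 (0.661 to 1.0) for Pax6, 0.953 (0.731 to 1.24) for Nes and 0.840 (0.634 to 1.11) for Hopx. Without Cst3 and Apoe in the order, Pax6 had 0.680 (0.551 to 0.836) Hopx 0.709 (0.525 to 0.954) and Nes 1.16 (0.897 to 1.49). The radial glia list had a median of 0.953 in the first order and of 1.08 in the second, with 13 of 23 genes above 1, so the list as a whole had no single direction. Phgdh, at 1.75 (1.53 to 2.0), and Slc1a3, at 1.45 (1.33 to 1.59), were higher in the highest members, whereas Nfia was level at 1.01 (0.891 to 1.14). The plot of ratios between both ends shows these genes in order.

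**Figure D5:**
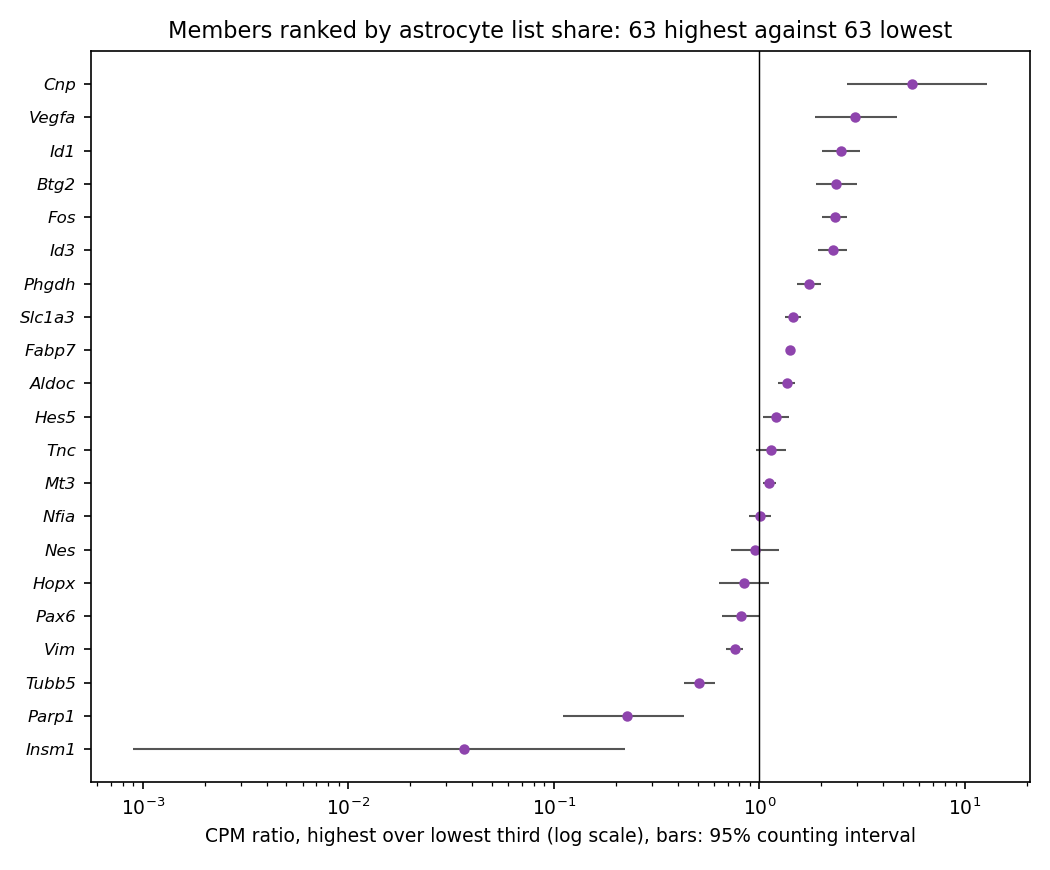
CPM ratio of the 63 members with the highest over the 63 with the lowest share of astrocyte maturation UMIs, on the x axis (log scale), with 95% counting intervals, for 21 genes outside the list that defined the order. Insm1 (0.0367) lies farthest left, Nes (0.953) near 1, and Fos (2.32), Id1 (2.49) and Cnp (5.51) to the right.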

How the data were processed

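The WT library was analysed from raw UMI counts per gene and barcode that the authors deposited, without normalization. The submitters' processing notes name STAR, Cell Ranger 2, Seurat and mm9. The methods name a later kit chemistry than Cell Ranger 2 was written for, so which version made the counts is uncertain. Cell Ranger made the matrix and Seurat served the study's own clustering. How barcodes were called as cells is not given in the sources used here, and files give gene symbols only, so positions come from RefSeq on GRCm38.p6. The members, the 29 gene lists (383 genes) and the comparisons were chosen with earlier results of these data known. Analyses used Python 3.11.15, numpy 2.4.6, scipy 1.17.1, pandas 2.3.3 and matplotlib 3.10.9 and were tested on simulated data. Ratios carry exact conditional binomial intervals and shares Clopper-Pearson intervals. A group at 0 was set at 3 counts. Excitatory neurons had at least 5 UMIs of Neurod2 and Neurod6 at most 2 of Aldoc and the mitotic and Olig limits of the rule. Genes named were the 25 highest and 10 lowest by the ratio of CPM + 10, the 10 highest and lowest against each similar group, the 15 most variable genes, and genes of the lists; the genes of the member ranges were chosen after their values were seen. Some genes that this rule names are not reported here. No doublet caller was run; instead the members richest in UMIs or in neuronal genes were left out as alternatives. Leaving out the member richest in each gene and ordering members without Cst3 and Apoe were added after seeing the data.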

Additional observations from a re-analysis of the deposited data

Results flagged for a closer look

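A signal lay outside the comparisons above: 7 barcodes with fewer than 1000 genes met every other limit of the rule. They held 703 to 1734 UMIs and 536 to 923 genes each, with a median mitochondrial share of 5.34%. Over their 8250 UMIs, Mt3 reached 3879 CPM and Apoe 5212 CPM, while Slc1a3 had no UMI, where 3 counts would be 364 CPM, and Hopx had 6 UMIs. The neuronal genes Tubb3 and Stmn2 reached 727 and 364 CPM there, against 121 and 127 CPM in the members.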

How the results depend on the processing

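No paired analysis was possible because only the 1 WT library was analysed. With no mitotic UMI allowed, 164 members remained. The count of higher genes was 13883 with no minimum level, 525 at a minimum of 50 CPM and 2291 at 2-fold, and that of lower genes 403 at 50 CPM and 2070 at 2-fold. These counts follow from the limits themselves. The Hopx share was 57.1% without thinning and 43.7% at 4000 UMIs, so shares are tied to depth. Against the 18 dividing cells, 151 genes were higher and 419 lower. With a minimum of 2 Aldoc and Fabp7 UMIs, hemoglobin genes crossed 1, with ratios of 20.7 for Hba-a1, 25.5 for Hba-a2, 12.7 for Hbb-bs and 18.8 for Hbb-bt; the cause was not tested. Over 287 genes, 2697 of 2866 values stayed within the counting interval of the ratio, but the alternatives reused mostly the same cells. The largest counts outside it were 76 with the mean over cells and 29 with no mitotic UMI allowed. Without the 25% of members with most neuron UMIs, 22 lay outside. Of 182 called genes, 10 left the 4-fold limit under some alternative (the 4 hemoglobin genes, Hadha, Itga6, Rrm2, Birc5, Elavl4 and Lhx6) and 19 moved by over 1.5 times (these hemoglobin genes, Stmn2, Tubb3, Nrgn, Erbb4, Zic2, Sstr2, Neurod1, Cenpe, Dcx, Rbfox3, Bcl11b, Slc17a7, Adarb2, Foxj1 and Cldn5). Ordering members without Cst3 and Apoe moved Cnp from 5.51 to 2.5, Id3 from 2.28 to 4.47 and Parp1 from 0.228 to 0.347, and among the 19 genes recomputed, none with a ratio of at least 2-fold changed its direction.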
